A study of Mus musculus with 6 samples.

Results

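The genes described here encode the proteins of the cytosolic ribosome, the particle that translates messenger RNA outside the mitochondria. They were chosen by symbol alone: names of the form Rpl or Rps with a number, plus Rpsa, Rplp0, Rplp1 and Rplp2, without the Rps6k kinases. Rps4y2, which this rule includes, is a transcribed pseudogene in RefSeq. The rule found 84 members among the 25899 genes of the table, 51 of the large subunit and 33 of the small subunit. Of these, 82 had a mean of at least 1 RPM (reads per 1000000 reads, not divided by gene length) and entered the tests, while Rpl3l and Rpl10l did not. Poly(A) RNA came from the apical mesenchyme of lower first molars of mice on postnatal day 7.5. The 3 mutants carried the Gli1-CreER driver with floxed Bmpr1a alleles (Gli1-CreER;Bmpr1afl/fl), and the 3 littermate controls carried the same floxed alleles without the driver (Bmpr1afl/fl). The strain was the same in both groups, Mixed background (C57Bl6/129S6/SvEvTac). CreER recombines floxed DNA after tamoxifen and is made here only in Gli1-expressing cells, so a mutant sample can hold cells that were never recombined; the labels give no tamoxifen schedule. By the labels, litter 2 is the source of control 3 and mutant 3, and litter 1 of the other 4 libraries.

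Each library held between 15916045 and 20609420 reads on genes, so that 3 reads, the smallest level treated as detectable, stood for 0.0987 to 0.126 RPM. Without molecular identifiers reads are not independent molecules, and these floors cover counting error alone. Bmpr1a, the floxed gene and a receptor for bone morphogenetic proteins, was at 121, 139 and 150 RPM in the controls and 108, 120 and 111 RPM in the mutants. Its groups did not overlap, and the log2 difference was -0.27 ± 0.14 (SE) on the log2(RPM + 1) scale, with unadjusted p 0.0910 (limma, adjusted p 1.00 by Benjamini-Hochberg). The row counts the whole gene and does not separate the floxed part from the rest. All 8 listed markers of dental mesenchyme were tested, and their summed level was 769 to 1184 RPM over the 6 libraries. All 10 listed enamel epithelium genes were also present, at a summed 2335 to 39307 RPM in the controls and 5335 to 49686 RPM in the mutants, and all 5 odontoblast genes at 1764 to 6060 and 479 to 8214 RPM. No marker of these 3 lists was at 0 in all libraries, and the part of odontoblasts in the results below was not tested. In bulk RNA, fewer cells of a type and less RNA per cell cannot be told apart.

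A ribosome joins a small subunit, which reads the messenger RNA, to a large subunit, which forms peptide bonds. Most of these proteins are present once in each subunit, and their genes are known for high and coordinated expression in growing tissues. Many of their messenger RNAs begin with a run of pyrimidines (C and T in the DNA), the TOP motif, through which growth signals acting on the mTOR kinase control their translation. Mammalian genomes also hold many processed pseudogenes of these genes, DNA copies of a spliced messenger RNA whose sequence can be almost the same as that of the parent gene.

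The start regions of 5 members are shown because the members varied together across libraries and because the TOP run lies there. Each line gives 35 bases before and 20 bases from the annotated start, 5′ to 3′ on the gene's strand, from RefSeq on GRCm38.p6. Capitals mark the longest run of C and T within 20 bases on either side of the start. Rpl14 and Rpl38 are proteins of the large subunit, Rplp2 belongs to its stalk, Rps27 is a protein of the small subunit, and Rpl39l is the member that departed most from the shared profile.
Rpl14, chr9:120571482-120571536, plus strand: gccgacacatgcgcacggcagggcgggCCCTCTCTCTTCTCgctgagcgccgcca
Rpl38, chr11:114668545-114668599, plus strand: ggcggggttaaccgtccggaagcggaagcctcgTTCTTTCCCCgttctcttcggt
Rplp2, chr7:141447616-141447670, plus strand: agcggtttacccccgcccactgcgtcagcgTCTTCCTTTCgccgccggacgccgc
Rps27, chr3:90213629-90213683, minus strand: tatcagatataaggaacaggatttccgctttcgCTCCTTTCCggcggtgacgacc
Rpl39l, chr16:10170193-10170247, plus strand: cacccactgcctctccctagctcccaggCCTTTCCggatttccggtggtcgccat
The runs were 14 bases in Rpl14, 10 in Rpl38, 10 in Rplp2, 9 in Rps27 and 7 in Rpl39l. The run of Rpl39l ended just before the annotated start, while the other runs crossed it. A run marked in this way need therefore not be part of the messenger RNA.

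The start-site table held 62 of the 84 members among 27025 genes, with the first listed start used for each gene. A run of at least 7 bases of C and T in that window was found in 35 of the 62 members (56.5%), against 24.2% of all genes. The same run on the opposite strand, A and G, was found in 4 members (6.45%), against 26.2% of all genes. The letters CCGGAAG, a sequence that ETS-family factors can recognise, stood on either strand in the 300 bases from 250 before to 50 after the start in 24 members (38.7%), against 9.12% of all genes. Such matches describe the sequence and are not shown to be bound.

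The next sequences are shown because the rows of several members could share reads with rows of near-identical copies, or have a close paralog. Coding sequence is from GENCODE M21 on GRCm38, positions count from 1 at the A of the start codon, and capitals mark the bases that differ within a pair. Rpl39 lies at chrX:37082520-37085402 and its paralog Rpl39l, a gene known for expression in the testis, at chr16:10170226-10174911. Their coding sequences, of 156 bases each, differ at 23 positions (85.3% identity), from T4G to G153A, with the Rpl39 base written first.
Rpl39: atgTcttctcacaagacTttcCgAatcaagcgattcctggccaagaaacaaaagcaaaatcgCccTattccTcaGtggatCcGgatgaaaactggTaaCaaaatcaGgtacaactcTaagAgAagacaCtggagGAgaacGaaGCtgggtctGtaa
Rpl39l: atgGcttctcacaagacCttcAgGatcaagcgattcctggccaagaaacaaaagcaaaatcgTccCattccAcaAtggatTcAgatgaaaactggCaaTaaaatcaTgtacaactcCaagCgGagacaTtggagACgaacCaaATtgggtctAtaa
Rpsa, a protein of the small subunit also known as the laminin receptor, lies at chr9:120127689-120132369. Its processed pseudogene Rpsa-ps10 lies at chr3:150072658-150073542 and differs from it at 6 of the 885 aligned coding positions. The 75 coding bases from position 145 to 219 hold T210C and C219T.
Rpsa: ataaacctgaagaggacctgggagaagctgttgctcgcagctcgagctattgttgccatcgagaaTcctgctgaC
Rpsa-ps10: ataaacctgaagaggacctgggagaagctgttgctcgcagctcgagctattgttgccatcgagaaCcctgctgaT
Rps3a lies at chr3:86137940-86142702, and the pseudogene Gm9000 at chr13:108670603-108671397 differs from it at 9 of 795 coding positions. T216C and T260C fall in positions 186 to 260.
Rps3a: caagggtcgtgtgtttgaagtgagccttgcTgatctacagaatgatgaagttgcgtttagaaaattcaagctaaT
Gm9000: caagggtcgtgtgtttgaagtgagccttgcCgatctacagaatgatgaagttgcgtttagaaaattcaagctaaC
Rpl29 lies at chr9:106429454-106431568, and the pseudogene Gm10709 on the same chromosome, at chr9:7751725-7752204, differs from it at 4 of 480 aligned positions. T423C and G457A fall in positions 383 to 457.
Rpl29: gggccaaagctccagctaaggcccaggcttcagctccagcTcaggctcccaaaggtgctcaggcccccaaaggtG
Gm10709: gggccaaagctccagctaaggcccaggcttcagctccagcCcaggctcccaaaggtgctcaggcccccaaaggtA
Within each printed stretch of these 3 pairs the member and its copy differ by 2 bases, and no other aligned stretch of 75 bases held more differences.

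The members together took 1.82% to 2.74% of the reads on genes. Their summed level was 14711, 13120 and 18509 RPM in controls 1 to 3 and 12223, 15533 and 17844 RPM in mutants 1 to 3. The highest library stood 1.51 times above the lowest.

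Levels of single members were compared per kilobase of coding sequence, since the table does not divide by length. The 81 tested members with an annotated coding sequence had a median of 233 RPM per coding kilobase, and the level at the 90th percentile was 7.94 times that at the 10th. Rpl41, which encodes a very short basic peptide of the large subunit, was highest at 5694 ± 1375 RPM per coding kilobase (SD over the 6 libraries, as for all values per kilobase). Its coding sequence has only 78 bases, so untranslated bases weigh more in this value than in the others. Next came Rps14, a small-subunit protein of the platform, at 1785 ± 362. Rplp1, of the stalk that recruits elongation factors, was at 1517 ± 198, and Rps3, at the entry of the messenger RNA channel, at 1411 ± 285 RPM per coding kilobase. The step from Rplp1 to Rps3 was smaller than the SD of either.

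The lowest rows per kilobase were Rpl39l at 46.3 ± 11.7, Rps13 at 50.4 ± 6.87, Rpl29 at 67.2 ± 55.4, Rps12 at 67.7 ± 9.10 and Rpl10 at 89.9 ± 10.8 RPM per coding kilobase. Rpl10 is a late-joining protein of the large subunit, and Rps12 and Rps13 are proteins of the small subunit. Except for Rpl39l, each of these members has near-identical copies with rows of their own. Rps13 held a mean of 8.50% of the reads of its own row and its 2 copies together, and Rps12 held 9.04%. With copies added, Rps13 rose from 50.4 to 595 and Rps12 from 67.7 to 755 RPM per coding kilobase.

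**Figure D1:**
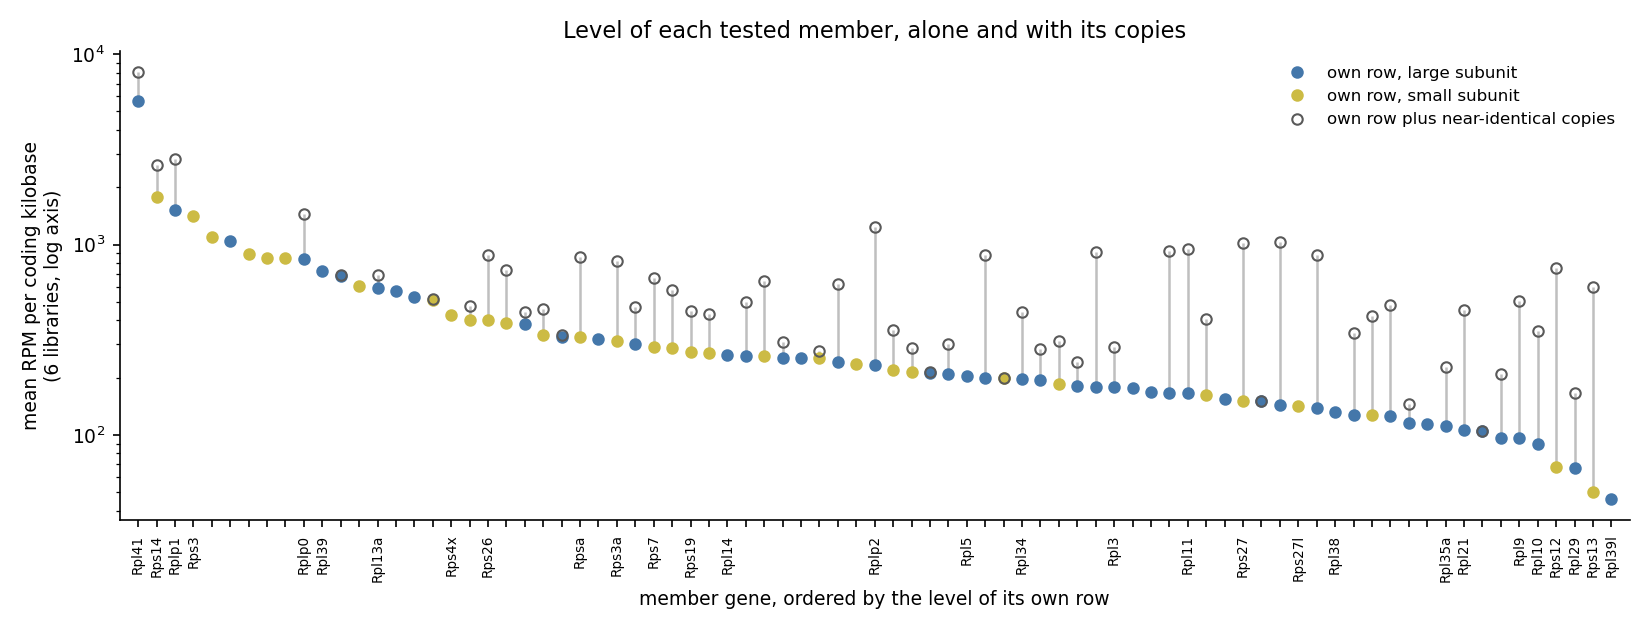
Mean RPM per coding kilobase over the 6 libraries (log axis) for the 81 tested members with a coding sequence, ordered along the horizontal axis by the level of the member's own row, with described members labelled. Filled points are own rows by subunit and open points add the rows of near-identical copies; Rps12 and Rps13 near the right end move above 500 when their copies are added, while Rpl39l has no copy and stays lowest.

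In all, 157 other rows matched the coding sequence of 58 members at 90% identity or more over at least 80% of its length, and 137 of them are annotated as processed pseudogenes. Their median identity was 97.6%, and 11 were identical over the aligned sequence. The copies summed to 8857, 7656 and 10901 RPM in the controls and 7149, 9210 and 10880 RPM in the mutants. That was 36.9% to 37.9% of members and copies together, a share that differed little between libraries. In 28 of the 58 members the copies held more reads than the member's own row. The sources used here do not say how reads that fit several places were counted, so the level of a member and that of its copies are uncertain by the same reads. Copies in the rows of Wdr89, which contains sequence like Rplp2, and BC004004, like Rpl21, share a row with another gene.

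Rplp0, the base of the stalk, was at 781, 656 and 1019 RPM in the controls and 630, 749 and 965 RPM in the mutants, and held 58.3% of its reads with its copy. Rplp1 was at 505, 497 and 600 RPM in the controls and 414, 534 and 589 RPM in the mutants. Rplp2 was at 69.2, 71.8 and 102 RPM in the controls and 60.9, 83.3 and 98.7 RPM in the mutants, and held 18.8%. In all 3 genes control 3 and mutant 3 were the highest of the 6 libraries, mutant 1 was the lowest, and the genotypes overlapped. Although stalk proteins P1 and P2 sit together as pairs, Rplp1 per coding kilobase was far above Rplp2 in their own rows (1517 ± 198 against 233 ± 47.6), and closer with copies added (2811 against 1234). The only copy of Rplp2 is the row of Wdr89, so the 18.8% and the 1234 count all reads of that row, including those of Wdr89 itself.

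Across libraries the members formed a single profile. The mean of the 82 tested members, each centred on its own mean log2 level, was -0.039, -0.16 and 0.28 in controls 1 to 3 and -0.33, 0.042 and 0.20 in mutants 1 to 3. Control 3 and mutant 3, the libraries of litter 2, were highest and mutant 1 was lowest. The litters thus did not overlap, while the genotypes did, and litter 1 alone ran from -0.33 to 0.042. Control 3 was the highest library for 59 of the 82 members and mutant 3 for 18, and mutant 1 was the lowest for 66. The median correlation of a member with this mean profile was 0.95 over 6 libraries, and 61 members reached 0.9. The mean contains each member itself, so these correlations only describe the profile.

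**Figure D2:**
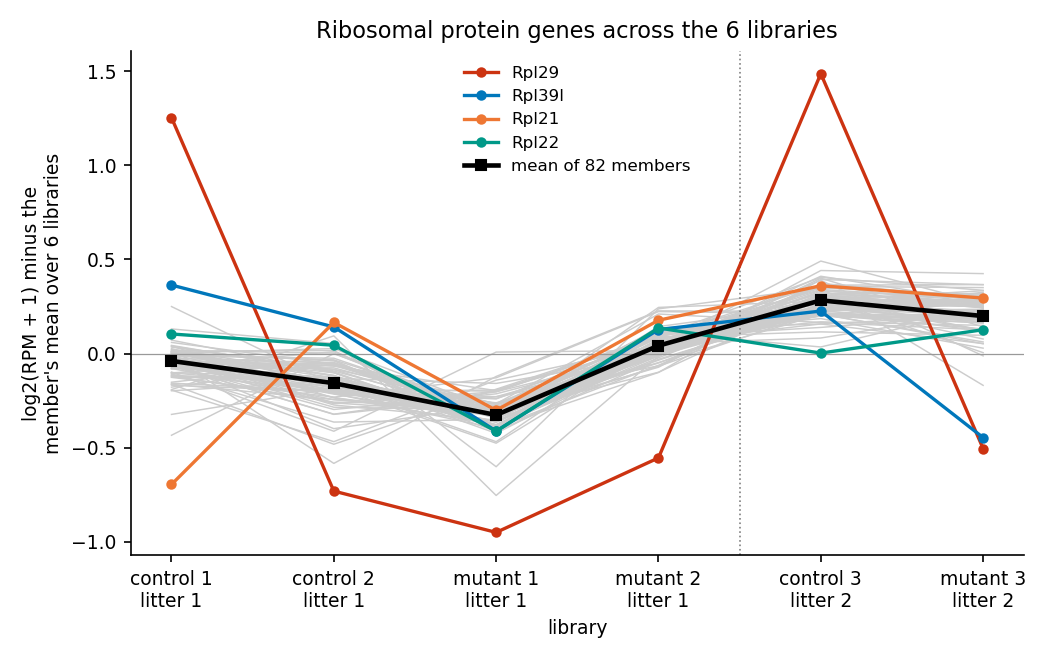
Log2(RPM + 1) of each of the 82 tested members minus its own mean over 6 libraries (vertical axis), by library with litter 1 left and litter 2 right of the dotted line. Grey lines are members and black squares their mean, which runs from -0.33 in mutant 1 to 0.28 in control 3; Rpl29, Rpl39l, Rpl21 and Rpl22 are drawn in colour as the members with the lowest correlation to that mean.

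The comparison of litters was added after the data had been seen. In a limma fit with genotype as a term, 81 of the 82 members were higher in litter 2, against 46.5% of all 14444 genes tested, and the exception was Rpl39l at -0.17. The median member difference was 0.37 on the log2(RPM + 1) scale, against -0.030 for all genes. In 67 of 82 members both libraries of litter 2 lay above all 4 of litter 1 (15.0% of all genes). No member had an adjusted p under 0.05 by Benjamini-Hochberg (0.872% of all genes did, in either direction), and 36 had an unadjusted p under 0.05 and were higher (7.21% of all genes). Rps26, a small-subunit protein near the messenger RNA exit, had the smallest p. In litter 1 it stood at 125 and 124 RPM (controls 1 and 2) and at 104 and 127 RPM (mutants 1 and 2), and in litter 2 at 180 RPM (control 3) and 176 RPM (mutant 3). All litter 2 values stood above all litter 1 values, and the difference was 0.57 ± 0.14 (SE) with an unadjusted p of 0.00485 and an adjusted p of 0.106 (limma, Benjamini-Hochberg). The 36 became 19 without control 1, 7 without control 2, 3 without control 3 and 5 without mutant 3, and 61 with median-of-ratios scaling; without control 3 or mutant 3 the lone library of litter 2 was assumed to vary like the rest.

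The summed member level was 13897 ± 1499 RPM in litter 1 (SD, n = 4) and 18176 RPM as the mean of the 2 libraries of litter 2. An exact permutation test of 2 against 4 libraries gave p = 0.133, the smallest two-sided value this design allows. Markers of some other tissues differed between the litters too, while the sums of the listed endothelial, osteoblast, dental mesenchyme and glia genes overlapped. The 5 odontoblast genes summed to 5063 to 8214 RPM in litter 1 and 479 to 1764 RPM in litter 2, and the 7 listed erythroid genes in the table to 230 to 588 and 774 to 2524 RPM. The odontoblast sum was carried by Dspp, and by unadjusted limma p under 0.05 for litter, 3 of its 5 genes were lower in litter 2 (Dspp, Nes and Phex) and 2 were higher (Dmp1 and Smpd3). The 8 macrophage and osteoclast genes in the table summed to 442 to 816 RPM in litter 1 and 363 and 410.2 RPM in litter 2, and 7 of the 8 were lower in litter 2, 5 of them with an unadjusted p under 0.05. Of the 10 enamel epithelium genes, 8 were higher in litter 2, with a median difference of 1.91, and 2 of them, the epithelial genes Krt14 and Cdh1, had an unadjusted p under 0.05. Their summed level was 2335 to 49686 RPM in litter 1 and 39307 and 20535 RPM in litter 2, so the litters overlapped, but Krt14, Krt5 and Cdh1 were each higher in both litter 2 libraries than in all of litter 1. Their part in the litter difference of the ribosomal protein genes was not tested, and litter 2 holds only 1 library of each genotype.

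Between genotypes, no ribosomal protein gene passed the test. The summed level was 15447 ± 2769 RPM in the controls and 15200 ± 2825 RPM in the mutants (SD, n = 3 each), a log2 difference of -0.026 with p = 0.9 in an exact two-sided permutation test, for which 3 against 3 libraries cannot give less than 0.1. The sign of this difference turned without control 3 (0.11) or without mutant 1 (0.12) and under quantile normalization (0.019). No member had an adjusted p under 0.05 in limma with Benjamini-Hochberg adjustment, and neither did any of the 14444 genes (0%). A single member, Rpl29, had an unadjusted p under 0.05 and was lower in mutants, 1.22% of the members against 0.692% of all genes, and none was higher (0.360% of all genes). The changes of 79 of the 82 members lay within 0.25 log2 units of 0, with a median SE of 0.20. Their median was -0.045, against -0.013 for all genes tested, and 56 of 82 (68.3%) were lower in mutants, against 54.4% of all genes. A fit with a term for genotype by litter gave no member an unadjusted p under 0.05 (5.06% of all genes). With the mean log2 level of the 10 enamel epithelium genes as a covariate, no member had an adjusted p under 0.05 and the median was -0.058; Rpl9 went from 0.16 to 0.087 and Rpl13a from 0.13 to 0.050. The median turned to 0.079 without control 3 and to 0.11 without mutant 1. The labels do not say whether each library came from a single animal, so p-values measure only the spread between these libraries, which may be technical.

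**Figure D3:**
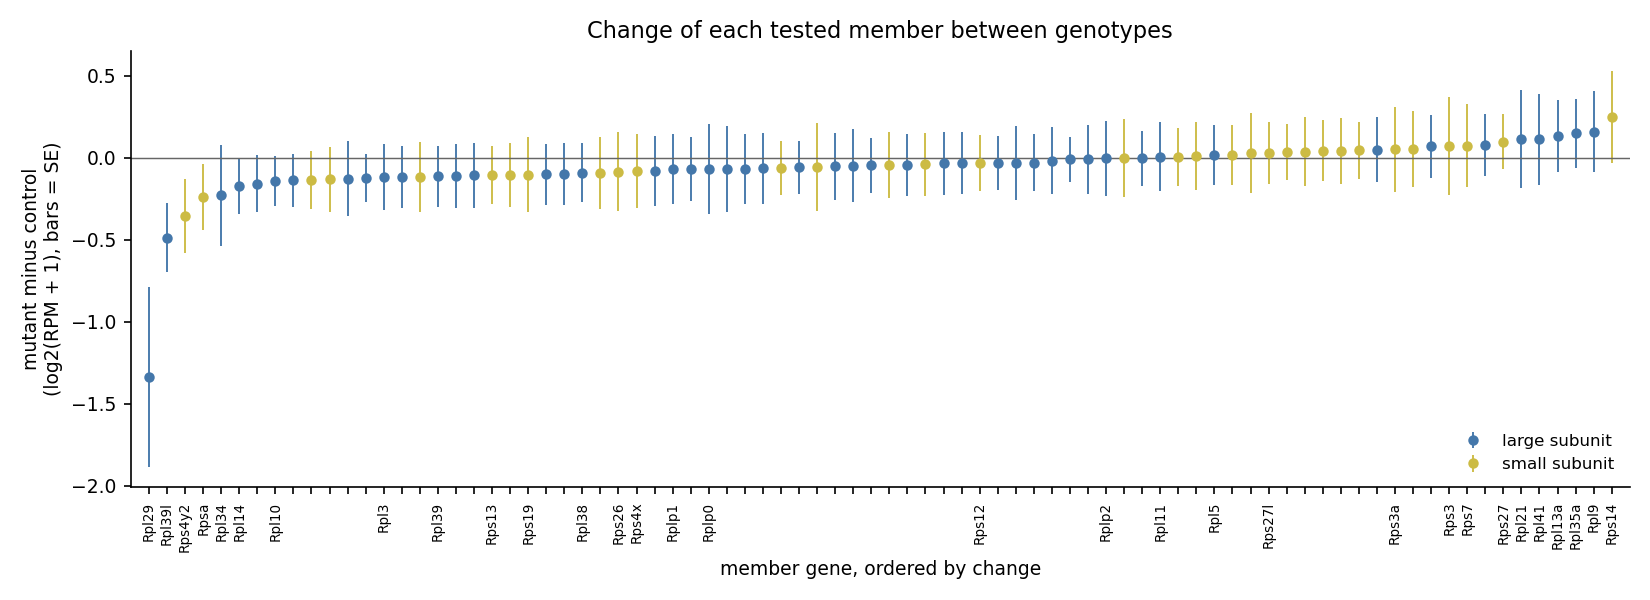
Mutant minus control change on the log2(RPM + 1) scale (vertical axis, bars are limma standard errors) for the 82 tested members, ordered by change and coloured by subunit, with described members labelled. Rpl29 at -1.34 and Rpl39l at -0.49 stand apart at the left, and most of the other members lie within 0.25 of 0.

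By subunit, 39 of 49 large-subunit members and 17 of 33 small-subunit members were lower in mutants, with median changes of -0.058 and -0.0018. The large-subunit sum divided by the small-subunit sum was 1.132, 1.185 and 1.100 in controls and 1.099, 1.082 and 1.077 in mutants. Every control lay above every mutant, control 3 and mutant 1 by a narrow margin. The mean ratio was 1.14 ± 0.043 in controls and 1.09 ± 0.012 in mutants (SD, n = 3 each), a log2 difference of -0.068 with an exact two-sided permutation p of 0.1, the smallest that 3 against 3 allows. Within litter 1 the difference was -0.087 and within litter 2 it was -0.031. It kept its sign in all 12 alternatives, between -0.093 and -0.039 (the latter without control 2), and was -0.056 with copies added.

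**Figure D4:**
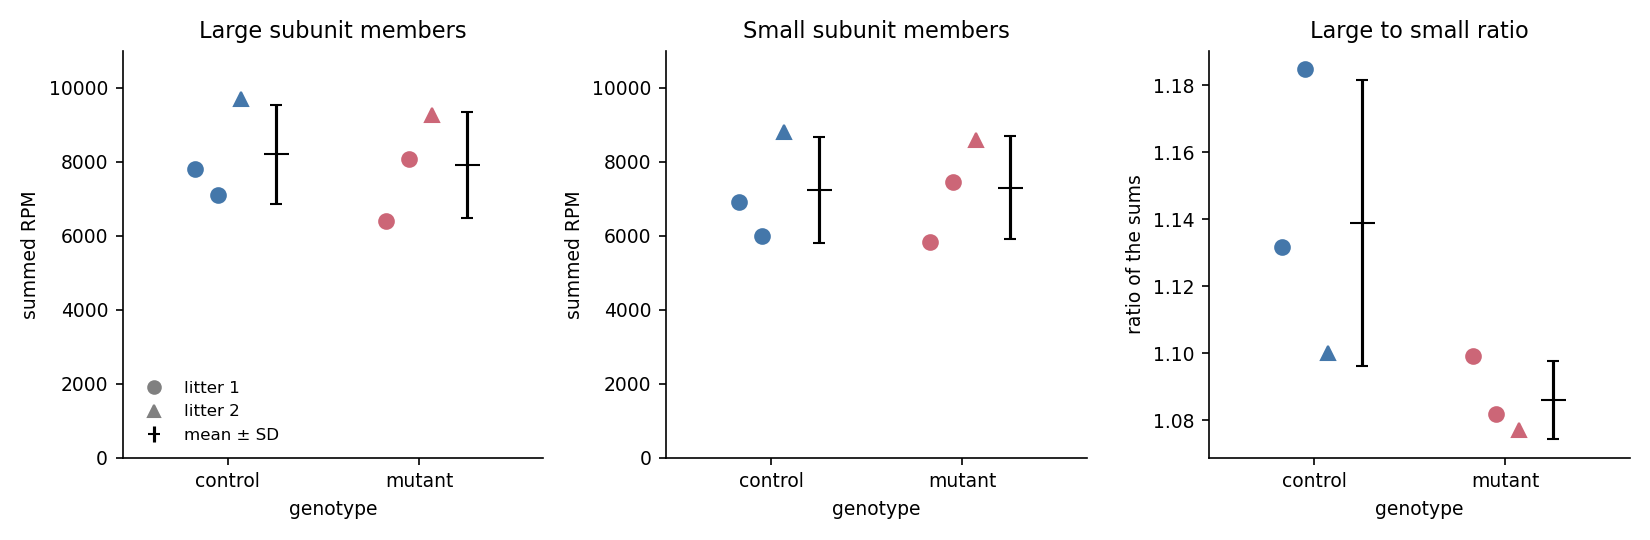
Summed RPM of the large-subunit and of the small-subunit members, and the ratio of the sums, for each library by genotype (circles litter 1, triangles litter 2, bars mean ± SD, n = 3; the axis of the ratio does not start at 0). Both sums overlap between genotypes and are highest in the litter 2 libraries, while the ratio is 1.100 or more in controls and 1.099 or less in mutants.

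Rpl29, a heparin-binding protein of the large subunit, varied most of all members. It was at 61.1, 14.7 and 72.1 RPM in controls 1 to 3 and 12.5, 16.8 and 17.4 RPM in mutants 1 to 3. Controls 1 and 3 were high, while control 2 sat among the mutants, so the groups overlapped. The mean was 49.3 ± 30.5 RPM in the controls and 15.6 ± 2.66 RPM in the mutants (SD, n = 3 each). This is a change of -1.34 ± 0.55 (SE), and its unadjusted p was 0.0438 and its adjusted p 1.00 (limma, Benjamini-Hochberg). It was -2.04 without control 2, with an adjusted p of 0.164 (0.164 to 1.00 over the alternatives), and -0.74 when the copies were added. The unadjusted p was above 0.05 without control 1, control 3, mutant 1 or mutant 3.

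Among the 13462 genes that averaged 2 RPM or more, a search made after this pattern had been seen asked for both of these controls at 1.8 times or more the highest of the other libraries. It found 2 genes, Rpl29 itself and its copy Gm17669. Gm17669 was at 17.4, 2.62 and 17.7 RPM in the controls and 2.56, 2.96 and 3.52 RPM in the mutants, high in the same pair of libraries. The closest copy by sequence shown above, Gm10709, was not: it was at 29.9, 25.3 and 32.1 RPM in the controls and 19.7, 27.4 and 31.3 RPM in the mutants. Lower copies differed: Gm3550 was highest in the same controls, at 4.28, 2.80 and 4.66 RPM against 2.59, 2.30 and 3.02 RPM in the mutants. Rpl29-ps5 was lowest in them, at 1.58, 3.53 and 2.51 RPM against 3.48, 4.96 and 5.15 RPM in the mutants, and so was Gm5218. The copy 4931440P22Rik did neither. Acy1, which follows Rpl29 on chromosome 9, was at 8.85, 8.39 and 8.97 RPM in the controls and 6.61, 9.85 and 9.22 RPM in the mutants and did not share the pattern. Abhd14a, the next gene, was at 17.1, 12.1 and 19.4 RPM in the controls and 9.38, 11.8 and 12.9 RPM in the mutants, highest in the same controls but by less. Dusp7, the gene before Rpl29, was at 44.9, 24.4 and 33.4 RPM in the controls and 31.3, 27.5 and 32.8 RPM in the mutants, with control 3 only just above the mutants. These neighbours were named after their values were seen. What set these 2 libraries apart in Rpl29 was not tested.

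Shifts between a member and its copies were also seen in 5 more of the 58 members with copies, and not all in the same libraries. In these 6 members the own row's share of reads ranged over 10 percentage points or more, against a median range of 1.87 points. Rpsa was at 300, 267 and 375 RPM in the controls and 218, 295 and 284 RPM in the mutants, and its change was -0.24 ± 0.20 (SE, unadjusted limma p 0.270). It was -0.046 with copies added, -0.11 without control 3 and -0.10 without mutant 1. Its copy Rpsa-ps10 was at 355, 297 and 426 RPM in the controls and 261, 337 and 609 RPM in the mutants. Mutant 3 was thus the highest library for the copy but not for the gene, whose share was 28.3% there against 39.7% to 41.6% elsewhere.

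Rps3a and Rps7, proteins of the small subunit, were named after their values were seen. Rps3a was at 180, 243 and 312 RPM in the controls and 196, 250 and 310 RPM in the mutants, with its lowest value in control 1. In that library its copy Gm9000 reached 282 RPM, while the other 5 libraries lay between 99.0 and 158 RPM. Rps7 was at 153, 128 and 213 RPM in the controls and 130, 177 and 214 RPM in the mutants, and its copy Gm9493 at 153, 121 and 308 RPM and 190, 253 and 304 RPM. The share of Rps7 was 50.04% and 51.5% in controls 1 and 2 and 40.6% to 41.3% in the other libraries. Rpl21, a large-subunit protein with 18 copies, was at 30.4, 56.0 and 64.2 RPM in the controls and 40.2, 56.4 and 61.3 RPM in the mutants, lowest in control 1. Rpl34, also of the large subunit, was at 58.3, 71.2 and 90.9 RPM in the controls and 39.2, 66.0 and 89.8 RPM in the mutants, lowest in mutant 1.

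**Figure D5:**
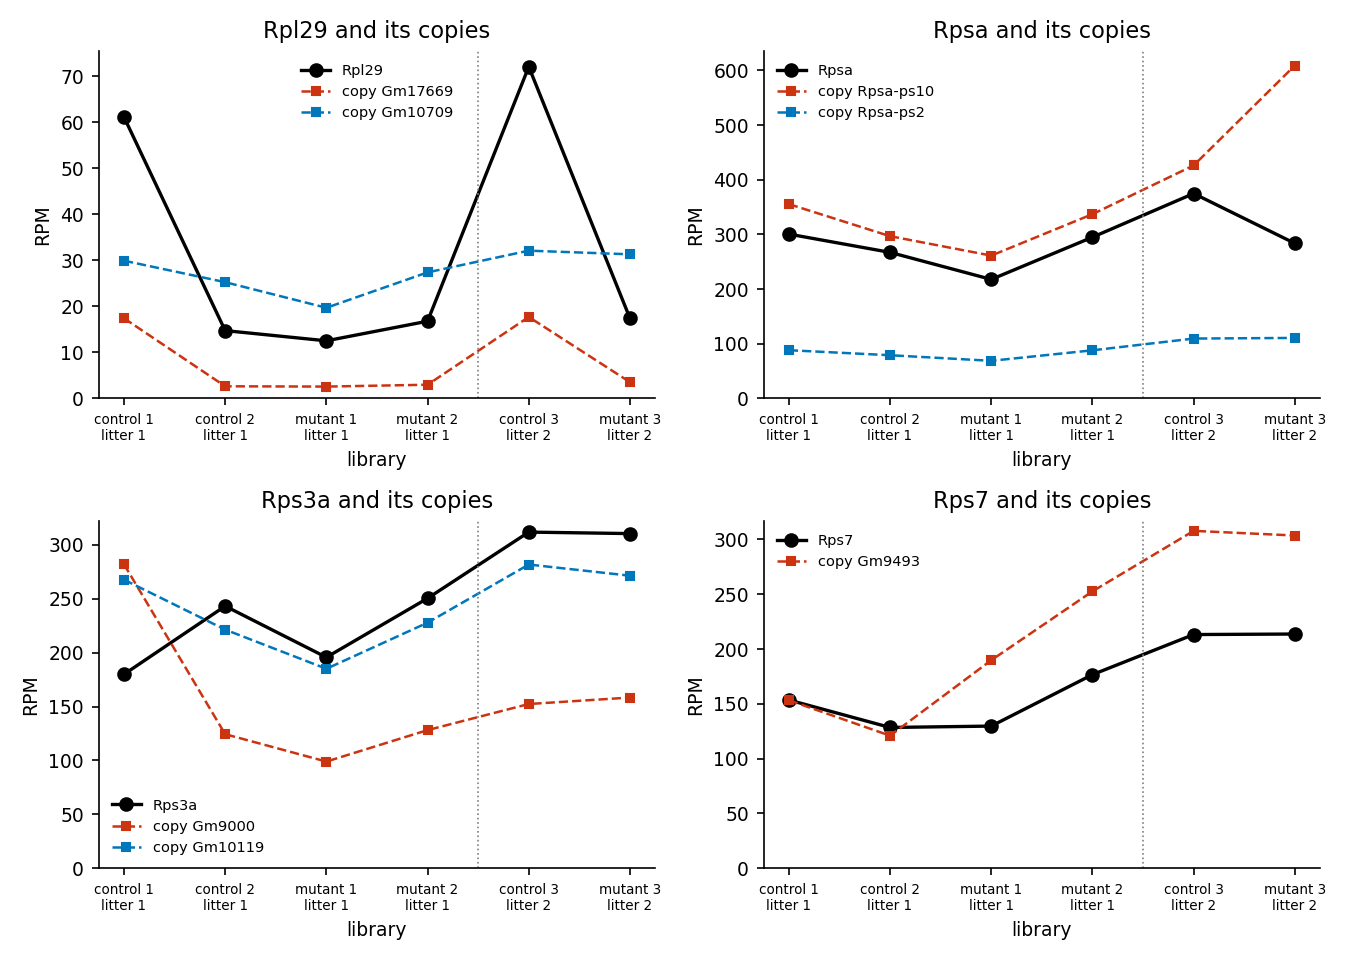
RPM by library of Rpl29, Rpsa, Rps3a and Rps7 (black circles) and of named copies (squares), with litter 1 left and litter 2 right of the dotted line. In the plots Rpl29 and Gm17669 are high in controls 1 and 3, Rpsa-ps10 is highest in mutant 3 at 609 RPM, Gm9000 is highest in control 1 at 282 RPM, and Gm9493 lies above Rps7 in all libraries but controls 1 and 2.

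Rpl39l was the only member whose genotypes did not overlap (1.22% of the members, against 1.67% of all genes not overlapping and lower and 0.976% higher). It was at 9.35, 7.87 and 8.40 RPM in the controls and 5.05, 7.79 and 4.90 RPM in the mutants. Mutant 2 lay just under control 2, and the other mutants were well below. The mean was 8.54 ± 0.75 RPM in the controls and 5.91 ± 1.62 RPM in the mutants (SD, n = 3 each), a change of -0.49 ± 0.21 (SE) whose unadjusted p was 0.0541 and adjusted p 1.00 (limma, Benjamini-Hochberg). Its correlation with the mean member profile, 0.20, was the lowest of all members. Rpl39, its partner at the exit of the peptide tunnel, was at 108, 109 and 134 RPM in the controls and 85.2, 124 and 118 RPM in the mutants. Per coding kilobase, Rpl39l stood at 8.67%, 7.22% and 6.25% of Rpl39 in controls and 5.92%, 6.29% and 4.15% in mutants, so the ranges of that share overlapped.

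The other paralogs of ribosomal protein genes fell into levels that differed widely. Of 8 listed pairs, 7 were in the table. Rpl10l, a testis paralog of Rpl10, had no reads in any library, which allows a level of up to 0.126 RPM. Rpl3l, the paralog of Rpl3 known from muscle, had at most 0.0987 RPM, which is 3 reads in control 1. Rpl3 itself was at 212, 199 and 260 RPM in the controls and 163, 214 and 245 RPM in the mutants. Rpl7l1 stood at 25.1% to 29.2% of Rpl7 per coding kilobase and Rpl22l1 at 27.7% to 36.8% of Rpl22, both with overlapping genotypes. Rps27l, known as a target of the stress regulator p53, was close to its partner Rps27, at 80.7% to 108% per coding kilobase, although the own row of Rps27 holds only 14.8% of its reads and those of its copy.

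Rps4y2, a paralog of the X-linked Rps4x without an annotated coding sequence, is listed by RefSeq as the transcribed pseudogene Rps4l. The copy search left out members, so reads shared between Rps4y2 and Rps4x were not looked for. Rps4y2 was at 38.2, 36.2 and 44.6 RPM in the controls and 22.6, 41.3 and 30.9 RPM in the mutants. Mutants 1 and 3 were lowest and mutant 2 lay among the controls. Its change was -0.35 ± 0.22 (SE, unadjusted limma p 0.155), which was -0.14 without mutant 1 and -0.56 without mutant 2. Rps4x was at 335, 308 and 394 RPM in the controls and 249, 338 and 408 RPM in the mutants, with overlap and highest in the litter 2 libraries. All 4 X-linked members, Rpl10, Rpl36a, Rpl39 and Rps4x, had changes below 0, with a median of -0.12, and none had an unadjusted p under 0.05. Of all 82 tested members 68.3% were lower, and of the large subunit, which holds Rpl10, Rpl36a and Rpl39, 39 of 49.

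Of the remaining members with the smallest p on either side, none came near the threshold. Rpl14 was at 170, 166 and 210 RPM in the controls and 138, 175 and 171 RPM in the mutants, a change of -0.17 ± 0.17 (SE, unadjusted limma p 0.331), which was -0.067 without control 3 and -0.064 without mutant 1. Rps14 was at 790, 532 and 932 RPM in the controls and 733, 934 and 962 RPM in the mutants, with control 2 lowest, a log2 difference of 0.25 ± 0.28 (SE, p 0.408 in the same fit), which was 0.020 without control 2 and 0.42 without control 3. Rpl35a was at 28.9, 31.9 and 44.6 RPM in the controls and 31.6, 38.9 and 46.2 RPM in the mutants. In both genes the genotypes overlapped. Rpl9 was at 48.4, 38.6 and 72.2 RPM in the controls and 47.5, 58.0 and 68.8 RPM in the mutants, Rpl13a, also known as a regulator of translation in inflammation, at 334, 269 and 445 and at 360, 362 and 404 RPM, and Rps27 at 35.02, 32.5 and 44.5 and at 34.96, 44.9 and 39.8 RPM. Control 2 was the lowest library for Rps14, Rpl9, Rpl13a and Rps27, and without it the changes of Rpl9 and Rpl13a turned to -0.041. Rpl41 was at 379, 313 and 610 RPM in the controls and 393, 448 and 522 RPM in the mutants, again lowest in control 2.

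Rpl5 and Rpl11 bind the 5S ribosomal RNA and, when free, the p53 regulator Mdm2. Rpl5 was at 176, 165 and 202 RPM in the controls and 146, 198 and 209 RPM in the mutants, and its change was 0.015 ± 0.18 (SE). Rpl11 was at 86.8, 72.5 and 107 RPM in the controls and 68.4, 104 and 95.6 RPM in the mutants, a change of 0.0075 ± 0.21 (SE). With copies added the change was 0.066. The Rpl11 row held a mean of 17.6% of the reads of itself and its 4 copies, while Rpl5 had no copy. Both overlapped between genotypes, and the sign of each turned when single libraries were left out, of either genotype. Rps19, the gene most often mutated in Diamond-Blackfan anaemia, was at 118, 103 and 147 RPM in the controls and 84.1, 122 and 142 RPM in the mutants. Rpl38, whose loss alters the patterning of the skeleton in mice, was at 26.9, 26.7 and 33.1 RPM in the controls and 21.8, 28.2 and 31.6 RPM in the mutants. Of 17 listed Diamond-Blackfan anaemia genes, 7 were higher and 10 lower in mutants and none had an unadjusted p under 0.05, and all 17 were higher in litter 2.

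Genes that work with the ribosome were taken from 4 further lists, and none of their members had an adjusted p under 0.05 for genotype (limma, Benjamini-Hochberg). Of 23 translation factors and other genes with a TOP motif, 19 were lower and 4 higher in mutants, with a median change of -0.048, and 21 were higher in litter 2, with a median of 0.33. Eif4b, an initiation factor, had the smallest p among those lower at 324 ± 8.39 RPM in the controls and 296 ± 26.5 RPM in the mutants, and Eif3h among those higher at 221 ± 51.0 and 232 ± 40.5 RPM (SD, n = 3 each). Of 43 ribosome assembly genes, 33 were lower and 10 higher in mutants, with a median change of -0.053, and 39 were higher in litter 2, with a median of 0.30. Here Rrp9 was at 15.1 ± 1.96 RPM in the controls and 12.7 ± 1.56 RPM in the mutants, and Nhp2, of the complex that guides pseudouridine formation, at 28.9 ± 8.70 and 34.0 ± 8.04 RPM. The median litter difference of the ribosomal protein genes was 0.37.

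Of the 19 genes of the mTOR axis, which carries growth signals to the ribosome, 11 were higher in litter 2, with a median difference of 0.012. Between genotypes 10 were lower and 9 higher. Mycn, a transcription factor that drives ribosome production, was at 21.4, 19.7 and 25.9 RPM in the controls and 9.70, 14.3 and 20.5 RPM in the mutants. Mutants 1 and 2 were below all controls and mutant 3 was not, and the log2 difference was -0.61 ± 0.27 (SE), with unadjusted p 0.0548 and adjusted p 1.00 (limma, Benjamini-Hochberg). Deptor, an inhibitor of mTOR, was at 4.98 ± 1.85 RPM in the controls and 5.98 ± 0.46 RPM in the mutants. Of 11 tested genes of the p53 response, 10 were higher in mutants, with a median change of 0.13, and none had an unadjusted p under 0.05. The exception, Cdkn1a, an inhibitor of the cell cycle, was at 82.6, 78.0 and 317 RPM in the controls and 101, 78.5 and 67.8 RPM in the mutants, high in control 3 alone, a log2 difference of -0.64 ± 0.52 (SE). With it, the summed level of the list was lower in mutants, by a log2 difference of -0.071.

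The genes outside the set whose log2 levels followed the mean member profile most closely over the 6 libraries were 3110001D03Rik (Pearson r 0.996), the copies Gm10154 of Rpl34 and Gm5619 of Rpl7a (both 0.995), Stip1, a co-chaperone, and Psmb3, a proteasome subunit (both 0.993). Stip1 was at 58.7, 55.6 and 74.5 RPM in the controls and 50.2, 61.3 and 70.0 RPM in the mutants, with the libraries in the order of the member mean. Of 9897 genes that averaged 10 RPM or more, 577 (5.83%) reached a correlation of 0.9, against 74.4% of the members. These correlations share the 6 libraries and their scaling, and they are a description only.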

How the data were processed

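RNA was sequenced from 6 libraries, 3 per genotype. Per the submitters' processing notes, TopHat2 and the mouse build mm10 were used. The counting program, the annotation and the treatment of reads that fit several places are not given in the sources used here. The table the authors deposited is titled as normalized RPKM but holds log2 values. Raised as powers of 2, 100% of the values came out as whole reads, since all genes of a column share the same step (relative tolerance 0.0001) and no length term, so they were treated as log2 of RPM, a scale inferred from the steps. The column minimum, 0.9 of 1 read, was set to 0. The test had been written for RPKM and was applied to these linear RPM values.

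The 14444 genes that averaged 1 RPM or more were fitted on log2(RPM + 1). The tool was limma 3.58.1, run in R 4.3.3 (lmFit, eBayes with trend, two-sided, Benjamini-Hochberg over all genes tested). The log2(RPM + 1) scale understates changes of low genes. Single values per library were compared by exact permutation tests. Copies were found by blastn 2.17.0 of member coding sequences (GENCODE M21) against transcripts of the other rows, of which 94.9% were matched. The fit was tested on simulated data. Groups were taken from the genotype labels, and all 6 columns were mapped. Replicate numbers came from the column names; deviations from the group means correlated by -0.033, 0.75 and 0.50 between same-numbered libraries, so the numbers were not taken as pairs.

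The members, gene lists and tests were chosen with earlier results of these data known. Named members were the 5 smallest p in each direction, the 5 highest and 5 lowest per coding kilobase, the 5 largest SD, the stalk proteins, Rpsa, Rpl5, Rpl11, Rps19, Rpl38 and the paralog pairs. A single member that this rule selects is not reported here. Named genes outside the set were, by rule, the 5 closest profiles and the smallest p in each direction of 3 lists. Further genes given by name, such as Rps26, Rpl36a, Cdkn1a and single tissue markers, fall outside these rules. Alternatives changed the pseudocount, filter, scaling, blocks, covariate, libraries and copies. Sequences of 2 kinds were used: RefSeq start regions (GRCm38.p6) and GENCODE transcripts; protein sequences were not used here. Figures were drawn with matplotlib 3.10.9.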

Additional observations from a re-analysis of the deposited data

Results flagged for a closer look

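In 2 of the named members, Rpl13a and Rpl41, every library followed opposite directions in the litters: no mutant overlapped a control of its own litter, and the sign differed. No share of all genes with this pattern was set beside these 2, so the count is a description only. Other named members, such as Rpl9 and Rpl22, had mean changes of opposite sign but overlapped within litter 1. For Rpl13a, both litter 1 mutants lay above both litter 1 controls (a mean change of 0.27 on the log2(RPM + 1) scale) and the litter 2 mutant lay below its control (-0.14), a difference of -0.41. For Rpl41 the values were 0.28 and -0.22, a difference of -0.51. In the limma fit with a genotype by litter term the unadjusted p was 0.302 for Rpl13a and 0.233 for Rpl41, and the Benjamini-Hochberg adjusted p was 0.910 for both, so neither difference between litters was past the threshold. No member had an unadjusted p under 0.05 for this term (5.06% of all genes did). Litter 2 holds 1 library per genotype.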

How the results depend on the processing

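No member had an adjusted p under 0.05 for genotype in the 19 alternatives (limma, Benjamini-Hochberg), nor for litter in 13. The single member with an unadjusted p under 0.05 became 0 with no filter, with limma voom on recovered reads, in litter 1 alone and with copies added, 2 with litter as a block, and 0 to 2 when 1 library was left out. With the replicate block, the median member change stayed at -0.045 and the count at 1; no paired call changed. The single member without overlap became 0 without the paralogs or with a mean of at least 10 RPM (both drop Rpl39l), 4 in litter 1 alone, where fewer libraries can overlap, and 1 to 3 when 1 library was left out. The summed level turned from -0.026 to 0.019 under quantile normalization, and ran from -0.15 to 0.12 when 1 library was left out. For litter 2 against litter 1, the 36 members became 61 with median-of-ratios scaling and 3 to 43 when 1 library was left out; 79 to 81 members stayed higher. Leaving out 1 library moved Rpl9 between -0.041 and 0.40 and Rpl13a between -0.041 and 0.32, the lowest in both without control 2. It moved Rpl5 between -0.082 and 0.17 and Rpl11 between -0.13 and 0.19, and Rpl5 was -0.00031 in litter 1 alone. The median member change ran from -0.16 to 0.11 when 1 library was left out. Other causes were not tested. Of the 10 members with the smallest p (5 in each direction), the other 8 kept their direction in all alternatives; further named members were not run. Also, scaling moved the median of all genes by at most 0.016. With 3 libraries a group and a median SE of 0.20, a change of -0.49 (Rpl39l) did not pass the adjusted test.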
